A study of Mus musculus with 24 samples.

Results

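The tumour suppressor p53 is a transcription factor that switches on genes for cell cycle arrest, apoptosis, DNA repair and stress signalling, and 10 of its best known targets were followed here in hepatocytes of young and old mice on 2 diets. They were taken by gene symbol as Cdkn1a, Mdm2, Ccng1, Gdf15, Trp53inp1, Bax, Eda2r, Zmat3, Sesn1 and Phlda3, 10 of the 55421 genes in the count table. All 10 were among the 13583 genes tested. The livers of 24 male mice were perfused with collagenase, hepatocytes were purified on Percoll, and the polyA RNA of each mouse was sequenced. The young mice were C57BL/6N and 6 months old by their labels, and the old mice were C57BL/6J and 24 months old, which means that age cannot be told apart from substrain. Each age was fed a normal chow diet (ND) or a high-fat diet (HFD) with 60% of its energy from fat for 9 weeks, which gave 4 groups of 6 mice named young ND (YND), young HFD (YHFD), old ND (OND) and old HFD (OHFD). Batches 1 and 2 of the labels each held 3 mice of YND, YHFD and OHFD, while OND had 2 in batch 1 and 4 in batch 2. The published text gives other ages and its methods another normal diet, and the labels were used here.

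In unstressed cells p53 protein is kept low by Mdm2, a ubiquitin ligase that is itself a p53 target, so the pathway carries its own negative feedback. When p53 is stabilised by DNA damage or other stress, Cdkn1a (p21) halts the cell cycle, and sustained p21 is a classical mark of cellular senescence. Senescent cells also secrete cytokines and proteases, the senescence-associated secretory phenotype (SASP). In liver, p21 is known from regeneration, steatosis and ageing, and Gdf15 is a hormone that hepatocytes release under stress.

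p53 binds DNA as a tetramer, each dimer on a half-site of 10 letters. The p53 half-site consensus reads as its own reverse complement, so 1 scan covers both strands. It was searched without mismatch in the 250 bases before each RefSeq start site (GRCm38.p6). Of the 10 genes, 8 had an entry, with 11 windows in all. An exact match was in 5 of these 11 windows, 1 each for Cdkn1a, Mdm2, Ccng1, Bax and Sesn1, while 2341 of all 32851 windows (7.13%) held one. A match describes the letters and does not show binding. The 5 windows with a match are printed first with the match in capitals, and the Phlda3 window, without an exact match, is printed because the differences between groups below turned mainly on that gene. They run 5′ to 3′ on the strand of the gene and stop 1 base before the start site.
Cdkn1a (chr17:29090729-29090978, plus strand): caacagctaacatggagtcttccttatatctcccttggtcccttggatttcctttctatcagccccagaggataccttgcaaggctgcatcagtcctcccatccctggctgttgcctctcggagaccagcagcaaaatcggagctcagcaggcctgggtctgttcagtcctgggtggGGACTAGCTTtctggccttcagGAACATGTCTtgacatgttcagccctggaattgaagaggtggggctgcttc
Mdm2 (chr10:117710759-117711008, minus strand): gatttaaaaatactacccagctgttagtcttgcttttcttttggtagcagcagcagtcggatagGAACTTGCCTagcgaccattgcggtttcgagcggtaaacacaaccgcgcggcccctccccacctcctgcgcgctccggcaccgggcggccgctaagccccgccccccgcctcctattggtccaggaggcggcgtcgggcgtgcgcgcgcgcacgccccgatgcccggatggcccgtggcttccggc
Ccng1 (chr11:40755287-40755536, minus strand): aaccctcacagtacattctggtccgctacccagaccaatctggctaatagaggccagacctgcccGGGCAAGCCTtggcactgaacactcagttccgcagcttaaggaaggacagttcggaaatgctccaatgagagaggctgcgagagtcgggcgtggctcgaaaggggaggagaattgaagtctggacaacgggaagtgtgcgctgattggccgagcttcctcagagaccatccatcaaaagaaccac
Bax (chr7:45466899-45467148, minus strand): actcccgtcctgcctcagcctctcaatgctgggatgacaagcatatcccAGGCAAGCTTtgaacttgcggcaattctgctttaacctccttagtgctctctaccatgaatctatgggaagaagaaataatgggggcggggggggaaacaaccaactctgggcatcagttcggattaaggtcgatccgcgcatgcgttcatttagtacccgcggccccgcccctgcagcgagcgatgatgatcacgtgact
Sesn1 (chr10:41887189-41887438, plus strand): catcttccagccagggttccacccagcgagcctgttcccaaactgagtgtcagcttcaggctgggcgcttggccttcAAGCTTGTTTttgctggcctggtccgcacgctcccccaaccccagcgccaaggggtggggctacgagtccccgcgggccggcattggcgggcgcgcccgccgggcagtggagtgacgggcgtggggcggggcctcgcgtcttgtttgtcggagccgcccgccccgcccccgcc
Phlda3 (chr1:135765835-135766084, plus strand): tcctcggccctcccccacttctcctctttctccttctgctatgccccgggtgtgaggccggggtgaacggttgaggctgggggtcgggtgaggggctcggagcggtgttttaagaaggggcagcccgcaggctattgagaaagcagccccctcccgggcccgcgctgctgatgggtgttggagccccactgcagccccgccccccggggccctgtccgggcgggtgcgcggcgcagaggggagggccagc
In Cdkn1a the matches began 73 and 51 bases before the start. The second, GAACATGTCT, was followed directly by TGACATGTTC, which has 1 mismatch and began 41 bases before the start. With no gap between them, they have the layout of a full p53 consensus site. With 1 mismatch allowed outside the core, 6 of the 11 windows matched, Eda2r being added, against 34.4% of all windows. The matched Sesn1 window lies inside the annotated span of the gene, before a downstream start.

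Total counts per mouse ran from 9200332 to 22185069, and every OHFD total (at most 13517632) was below every total of the other groups (at least 13692834). Hepatocyte markers dominated in all groups: the 8 markers, albumin included, summed to 40511 to 154079 CPM (counts scaled to a common library size with TMM factors). Transcripts of other liver cell types were present and differed between groups. The 10 macrophage and Kupffer cell markers summed to a median of 26.0 CPM in YND, 106 in YHFD, 102 in OND and 116 in OHFD, and none of them was at 0 in all mice of a group. YND mice of batch 1 stood lowest (1.88 to 5.10 CPM), against 46.8 to 82.0 CPM for YND in batch 2. OND replicates 4 and 3 (1328 and 890 CPM) and OHFD replicates 6 and 4 (678 and 520 CPM) stood highest, all in batch 2, and no other mouse exceeded 211 CPM. OND replicate 4 also had the lowest hepatocyte marker sum. The mitochondrial share, taken on TMM-scaled CPM and not on raw counts, was highest in 3 of these 4 libraries. It was 30.6% in OND replicate 4, 21.8% in OHFD replicate 4 and 19.1% in OHFD replicate 6, and 11.7% in OND replicate 3. All other mice held 4.26% to 12.8%. Sums for the other cell types are shown in the plot of marker sums. Lymphocyte (10 markers), neutrophil (5), endothelial (7) and stellate (7) sums also had their lowest medians in YND. Of the neutrophil markers 1 was at 0 throughout each group, and 1 lymphocyte marker was at 0 throughout YND. Counts of called genes were therefore also made without these 4 libraries, a choice made after seeing the data. For the 10 targets none was called without them in YHFD minus YND, OHFD minus OND, OHFD minus YHFD or the interaction, by edgeR. Of all 13593 genes in that fit, 1074, 401, 94 and 0 were called in these comparisons.

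**Figure D1:**
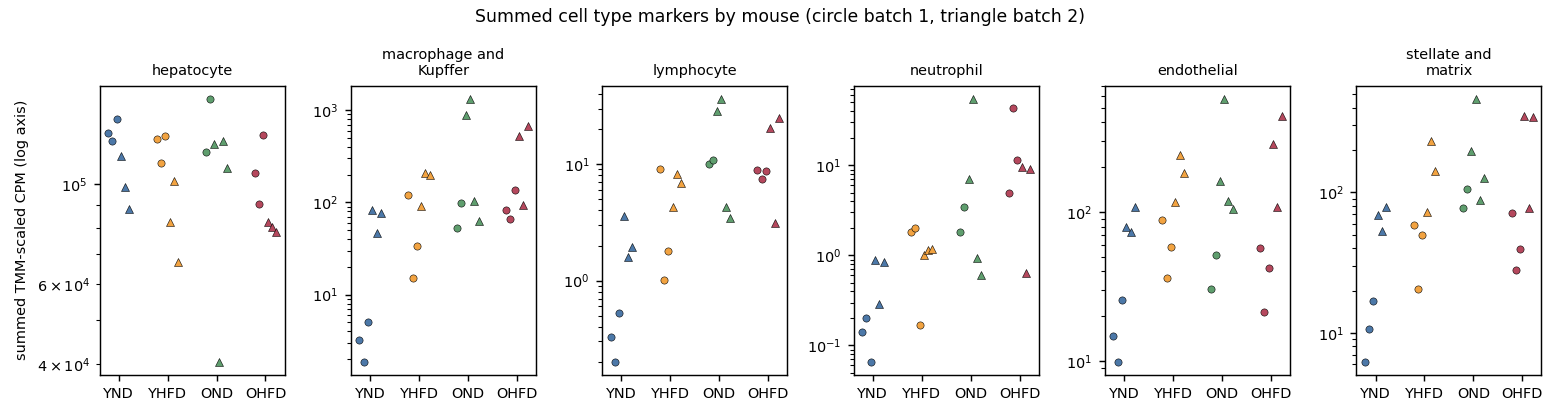
Summed CPM (TMM-scaled, log axis) of cell type markers in each of 24 mice, by group, with circles for batch 1 and triangles for batch 2. Macrophage and Kupffer sums ran from 1.88 CPM in a YND mouse to 1328 CPM in OND replicate 4, while hepatocyte sums spanned 40511 to 154079 CPM.

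Levels between genes were compared as CPM per kilobase of exon. Over all 24 mice Gdf15 had the highest mean (17.8 ± 12.02 CPM per kb, SD), followed by Ccng1 (13.2 ± 4.18), Trp53inp1 (12.9 ± 3.71), Bax (10.4 ± 2.53) and Mdm2 (5.85 ± 0.981). Sesn1 (3.27 ± 0.425) and Cdkn1a (2.84 ± 1.95) came next, and Phlda3 (0.644 ± 0.660), Zmat3 (0.467 ± 0.125) and Eda2r (0.2998 ± 0.191) were lowest. The top of the order differed by group: Gdf15 had the highest mean in OND (23.9 CPM per kb) and OHFD (23.6), Ccng1 in YHFD (15.5, Gdf15 15.1) and Trp53inp1 in YND (13.8), where Ccng1 (11.6) and Bax (9.34) also stood above Gdf15 (8.75). Neighbours in this order were separated by more than the larger of their SDs only between Bax and Mdm2, between Mdm2 and Sesn1, and between Cdkn1a and Phlda3. Among all tested genes Gdf15 stood at the 86.2 percentile, Cdkn1a at the 52.0 percentile and Eda2r at the 10.5 percentile. Low level brings few counts: Phlda3 had 1 to 7 counts in YND mice and 8 to 41 in OND mice, and Eda2r 3 to 22 and 22 to 86.

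**Figure D2:**
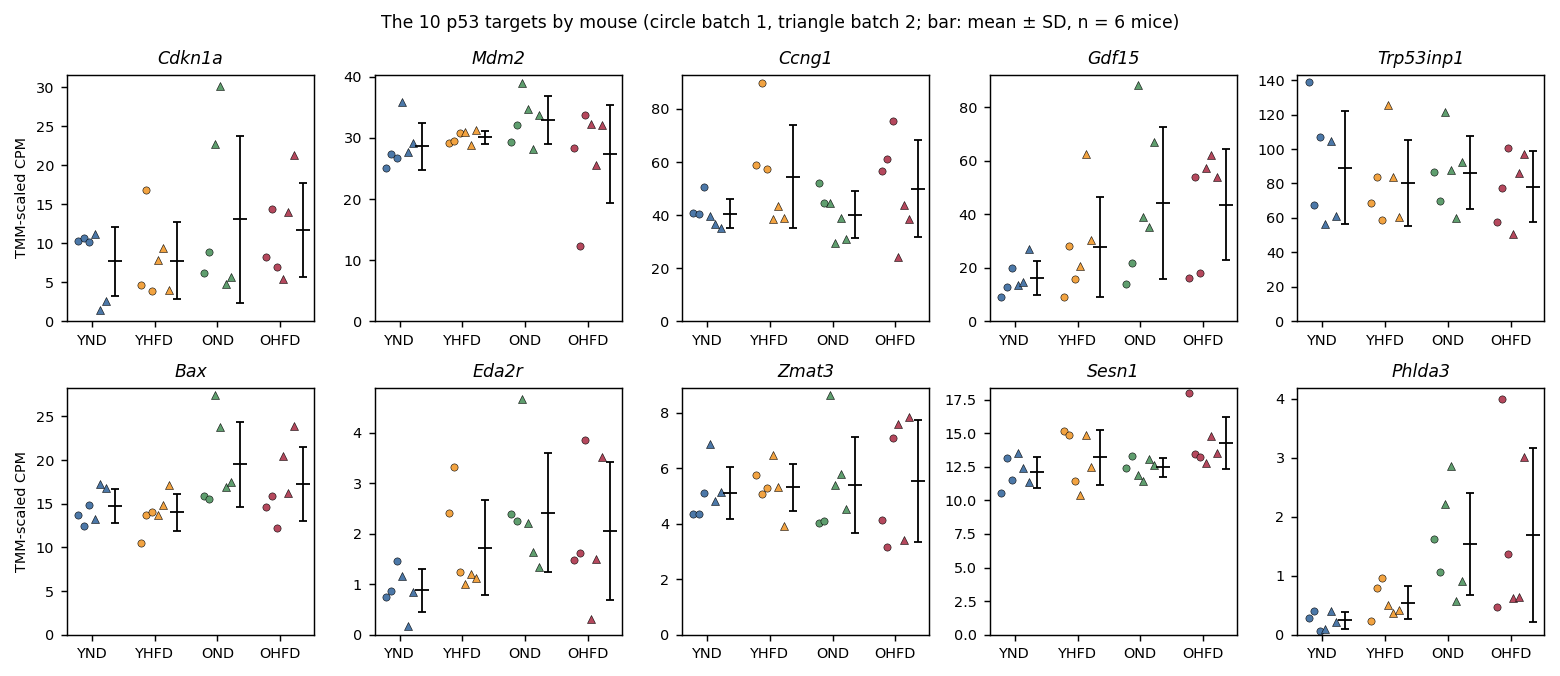
TMM-scaled CPM of the 10 genes in each mouse, 1 panel per gene with its own axis from 0, circles for batch 1 and triangles for batch 2, and the mean ± SD of 6 mice beside each group. Phlda3 in YND (at most 0.402 CPM) lay below every OND and OHFD mouse, whereas for the other 9 genes the old groups overlapped YND.

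Old and young mice on ND were compared first, to ask how the targets differed with age without the HFD. Phlda3 and Eda2r were higher in OND than in YND, and no member was lower (edgeR quasi-likelihood test, Benjamini-Hochberg adjusted over all 13583 genes). These are 2 of 10, against 8.5% of all tested genes called and 7.26% called higher. The median log2 fold change of the 10 genes was 0.26, against 0.01 for all genes, and 9 of 10 were above 0. When the 4 libraries highest in macrophage markers were left out, 0 of the 10 and 94 of 13593 genes were called, against 1155 with them. In bulk RNA fewer cells of a type and less RNA per cell cannot be told apart, and the part of non-hepatocyte RNA in these differences was not tested.

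Phlda3 encodes a small pleckstrin homology protein that competes with Akt for membrane lipids and so restrains survival signalling. Its level was 0.0662, 0.249 and 0.402 CPM (lowest, median and highest) in YND and 0.571, 1.34 and 2.86 CPM in OND. Every OND mouse lay above every YND mouse, which 2.08% of all tested genes did. Phlda3 was the only one of the 10 genes to do so, with a log2 fold change of 2.66 ± 0.59 (SE, adjusted p = 0.00734). It stayed called when any single mouse was left out (log2 fold change 2.40 to 2.92). In batch 1 alone it was 2.39 and in batch 2 alone 2.73, neither of them called (adjusted p = 0.406 and 0.205). The 4 libraries touch this call: without them the log2 fold change was 2.01 (adjusted p = 0.106). The gene reached the minimum count in 0 YND, 2 YHFD, 5 OND and 4 OHFD mice, so it entered the test mainly through the old mice.

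Eda2r is a TNF receptor family member that binds the ectodysplasin form EDA-A2. Its level was 0.172, 0.863 and 1.46 CPM in YND and 1.34, 2.23 and 4.66 CPM in OND. The groups overlapped by 1 mouse, OND replicate 6 lying below the highest YND mouse. Eda2r had a log2 fold change of 1.57 ± 0.48 (SE, adjusted p = 0.0433). The call was lost when any of 10 single mice was left out, including YND replicates 1, 2, 5 and 6 and OND replicates 1 to 4, with adjusted p up to 0.136. Without the 4 libraries the log2 fold change was 1.11 (adjusted p = 0.212).

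Gdf15 encodes a secreted cytokine of the TGF-beta superfamily. It had 9.12, 14.1 and 27.0 CPM in YND and 14.1, 37.1 and 88.3 CPM in OND. Of the OND mice, 4 lay above all YND mice and the other two within their range. The log2 fold change was 1.13 ± 0.36 (adjusted p = 0.0516), just outside the threshold. It was called by DESeq2, in 8 of 24 fits that each left out a mouse and in the fit with the replicate number as a block. Leaving out the 4 libraries gave 0.95 (adjusted p = 0.268). Within batches the log2 fold change was 0.39 in batch 1 and 1.63 in batch 2.

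Cdkn1a had 1.49, 10.2 and 11.2 CPM in YND and 4.86, 7.57 and 30.2 CPM in OND. The highest OND values, 30.2 and 22.8 CPM, came from replicates 4 and 3, which also had the highest macrophage marker sums. The remaining OND mice, at most 8.94 CPM, lay within the YND range. The log2 fold change of 0.75 ± 0.54 (adjusted p = 0.447) did not pass, and it was -0.43 in batch 1, 1.62 in batch 2 and -0.22 without the 4 libraries. The part of those libraries' other cells in the Cdkn1a level was not tested.

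Bax, the pore-forming effector of mitochondrial apoptosis, had 12.4, 14.3 and 17.3 CPM in YND and 15.5, 17.2 and 27.4 CPM in OND (log2 fold change 0.34 ± 0.14, adjusted p = 0.129). The groups overlapped and 3 OND mice lay above all YND mice. Mdm2 had 25.1, 27.5 and 35.9 CPM in YND and 28.2, 32.9 and 39.0 CPM in OND (0.17 ± 0.15, adjusted p = 0.550). Ccng1 (cyclin G1), which acts in p53 feedback, Trp53inp1, a stress-induced cofactor of p53, Zmat3, an RNA-binding zinc finger protein, and Sesn1, a sestrin that restrains mTORC1, had log2 fold changes from -0.05 (Trp53inp1) to 0.06 (Ccng1). Their adjusted p-values ran from 0.837 to 0.964.

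**Figure D3:**
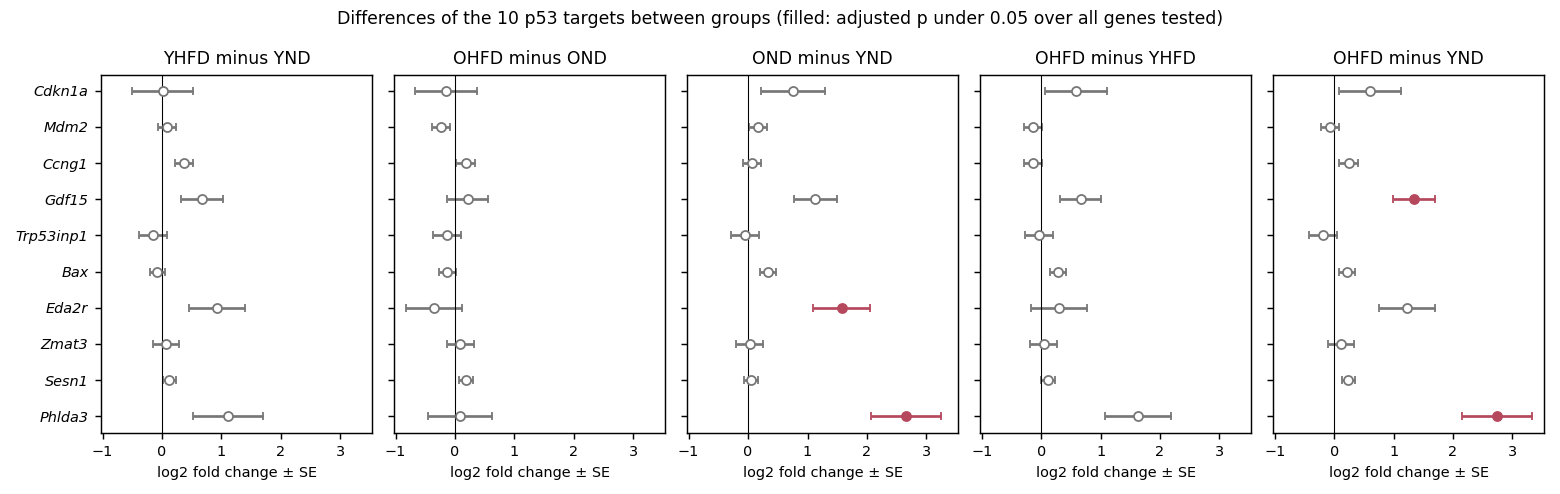
log2 fold change ± SE of the 10 genes in 5 comparisons, with filled red points for adjusted p under 0.05 over all genes tested. The filled points are Phlda3 (2.66) and Eda2r (1.57) in OND minus YND and Phlda3 (2.74) and Gdf15 (1.34) in OHFD minus YND.

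The same question on HFD compared OHFD with YHFD. None of the 10 genes was called, by edgeR or DESeq2, against 2.24% of all tested genes by edgeR, and 2 of 10 had an unadjusted p under 0.05 against 21% of all genes. Phlda3 had 0.230, 0.459 and 0.958 CPM in YHFD and 0.467, 1.01 and 3.99 CPM in OHFD. The highest OHFD mice were replicates 2 and 6 (3.99 and 3.02 CPM), and the groups overlapped. For Phlda3 the difference was 1.63 ± 0.55 on the log2 scale (adjusted p = 0.103). Bax, the other gene with a small unadjusted p, had a log2 fold change of 0.29 ± 0.13 (adjusted p = 0.226). For Cdkn1a, YHFD held 3.89, 6.32 and 16.8 CPM and OHFD 5.44, 11.1 and 21.3 CPM. The Cdkn1a groups overlapped broadly, with 1 OHFD mouse above all YHFD mice (0.59 ± 0.52, adjusted p = 0.534).

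The effect of HFD within each age was asked next. In young mice none of the 10 genes was called by edgeR or DESeq2, against 3.5% of all tested genes by edgeR, and 1 of 10 (Ccng1) had an unadjusted p under 0.05 against 21.2% of all genes. The median log2 fold change was 0.10, against 0.01 for all genes, and 8 of 10 were above 0. Ccng1 had 35.2, 40.1 and 50.6 CPM in YND and 38.7, 50.3 and 89.7 CPM in YHFD. The YHFD mice of batch 1 lay above all YND mice, and those of batch 2 within their range. Ccng1 had a log2 fold change of 0.37 ± 0.16 (adjusted p = 0.160), with 0.64 in batch 1 and 0.14 in batch 2. The HFD and age comparisons share YND or OND mice and are not independent of each other.

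Several other targets had positive but uncalled values in young HFD mice. Phlda3 had a log2 fold change of 1.11 ± 0.59 (adjusted p = 0.290), Eda2r 0.92 ± 0.48 (0.269) and Gdf15 0.68 ± 0.35 (0.270). For Gdf15 the YHFD mice ran from 9.18 CPM over a median of 24.6 to 62.7 CPM, its lowest mouse lying near the YND minimum of 9.12 CPM and its highest being replicate 5. Cdkn1a was nearly equal between the young groups, with means of 7.72 ± 4.42 CPM in YND and 7.79 ± 4.96 CPM in YHFD (SD, n = 6; log2 fold change 0.01 ± 0.52, adjusted p = 0.993).

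In old mice HFD left the 10 genes without a call by edgeR or DESeq2, against 3.01% of all tested genes by edgeR, and 0 of 10 had an unadjusted p under 0.05 against 22% of all genes. Log2 fold changes ran from -0.35 (Eda2r) to 0.21 (Gdf15), with a median of -0.02 against -0.01 for all genes. Mdm2 had 12.4, 30.2 and 33.8 CPM in OHFD against 28.2, 32.9 and 39.0 CPM in OND. The lowest value came from OHFD replicate 2, whereas the other five OHFD mice held 25.5 to 33.8 CPM. The Mdm2 log2 fold change was -0.24 ± 0.15 (adjusted p = 0.374). Sesn1 had 12.8, 13.5 and 18.0 CPM in OHFD and 11.4, 12.5 and 13.3 CPM in OND. Of the OHFD mice, 4 lay above all OND mice (0.19 ± 0.12, adjusted p = 0.359).

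The age by diet interaction, which asks whether the HFD difference in old mice departs from that in young mice, was called for 0 of the 10 genes and 0% of all tested genes by edgeR. At an unadjusted p under 0.05 it held 0 of the 10 and 9.18% of all genes. DESeq2 called 4 genes higher and 3 lower in the whole table, none of them among the 10. Eda2r had the lowest interaction value (-1.27 ± 0.66 on the log2 scale, adjusted p = 0.554), from 0.92 in young mice and -0.35 in old mice.

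Old HFD mice were finally compared with young ND mice, the groups that differ in both factors. Phlda3 and Gdf15 were higher in OHFD and no member was lower, 2 of 10 against 30.2% of all tested genes called and 17.3% called higher. The median log2 fold change was 0.24, against 0.04 for all genes, and 8 of 10 were above 0. Phlda3 and Gdf15 were also called without the 4 libraries, of 2605 genes against 4101 with them. Markers of other cells were still higher in OHFD without these libraries, with 5 of 10 macrophage and Kupffer markers (median of the 10 on the log2 scale 2.24), 2 of 3 tested neutrophil markers (S100a8, 5.30, and S100a9, 5.55) and 2 of 3 tested lymphocyte markers (Cd3g, 3.85, and Cd8a, 3.98) called, and their part in the Phlda3 and Gdf15 values was not tested. This comparison shares the YND mice with OND minus YND.

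Phlda3 had 0.467, 1.01 and 3.99 CPM in OHFD, with every mouse above the YND maximum of 0.402 CPM, as 2.99% of all tested genes had. The gene reached the minimum count in 0 YND and 4 OHFD mice, so it entered the test mainly through the old mice, where it was high. With only the YND and OHFD mice it fell below the filter. Its log2 fold change was 2.74 ± 0.59 (adjusted p = 0.00200), and 2.44 without the 4 libraries (adjusted p = 0.0102). It was 2.86 in batch 1 and 2.56 in batch 2. Gdf15 had 16.4, 54.1 and 62.3 CPM in OHFD against 9.12, 14.1 and 27.0 CPM in YND. The OHFD mice fell into a set of 4 from 54.0 to 62.3 CPM and replicates 1 and 3 at 16.4 and 18.0 CPM, which lay within the YND range. The log2 fold change was 1.34 ± 0.35 (adjusted p = 0.00730), 1.04 in batch 1 and 1.66 in batch 2. Both genes stayed called in all 24 fits that left out a mouse.

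Eda2r had 0.316, 1.56 and 3.86 CPM in OHFD, with 5 of 6 mice above all YND mice and replicate 4 below all but 1 of them (1.23 ± 0.48, adjusted p = 0.0546). DESeq2 called Eda2r in this comparison, beside Phlda3 and Gdf15. Cdkn1a had a log2 fold change of 0.60 ± 0.52 (adjusted p = 0.399), which was -0.11 in batch 1 and 1.42 in batch 2. In YND the Cdkn1a level itself split: replicates 5 and 6 held 1.49 and 2.62 CPM and the other four 10.1 to 11.2 CPM. Sesn1 (0.24 ± 0.12, adjusted p = 0.117), Ccng1 (0.24 ± 0.16, 0.247), Bax (0.21 ± 0.13, 0.241), Zmat3 (0.12 ± 0.22, 0.722), Mdm2 (-0.07 ± 0.15, 0.773) and Trp53inp1 (-0.19 ± 0.23, 0.560) did not pass.

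Trp53, which encodes p53 itself, had means of 11.3 ± 1.38 CPM in YND, 12.7 ± 1.21 in YHFD, 13.4 ± 1.89 in OND and 11.3 ± 2.01 in OHFD (SD, n = 6), and was called in no comparison. Among 34 other p53 network genes, 31 were tested. In OND minus YND 3 rose and 0 fell, against 7.26% of all tested genes called higher and 8.5% called, namely Gadd45a, a growth arrest and DNA damage gene (log2 fold change 1.35, adjusted p = 0.00177), Btg2, an antiproliferative gene (2.07, adjusted p = 0.00184), and Apaf1, the apoptosome scaffold (1.49, adjusted p = 0.0433). The list median was 0.24. Without the 4 libraries Gadd45a (1.23) and Btg2 (1.90) were called and Apaf1 (1.03, adjusted p = 0.238) was not, with 94 of all 13593 genes called. In that fit the log2 medians were still 1.89 for macrophage and Kupffer markers (0 of 10 called) and 1.78 for stellate and matrix markers (1 of 7 called, Dcn). The part of such cells in the Gadd45a and Btg2 values was not tested.

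Gadd45a had 5.34, 7.03 and 9.73 CPM in YND, 9.15, 20.6 and 31.1 CPM in OND and 13.1, 21.4 and 28.8 CPM in OHFD. Its OHFD mice lay above every YND mouse, and the lowest OND mouse, replicate 2, lay within the YND range. It was the only gene of this list that edgeR called in OHFD minus YHFD (1.02, adjusted p = 0.0182), 1 of 31 against 2.24% of all tested genes. The value without the 4 libraries was 0.97 and no longer called, and DESeq2 called Gadd45a and Btg2 higher. In OHFD minus YND 6 rose, Gadd45a (1.501), Btg2 (2.03), Sfn (2.54), Fas (0.61), Fdxr (0.54) and Ercc5 (0.38), and 1 fell, Steap3 (-0.42), so 7 of 31 were called against 30.2% of all tested genes. Without the 4 libraries Gadd45a, Btg2, Sfn and Fas were called there, where 2605 of all 13593 genes were called. Fdxr (0.35, adjusted p = 0.0973), Ercc5 (0.21, adjusted p = 0.194) and Steap3 (-0.37, adjusted p = 0.0600) were not. In YHFD minus YND and OHFD minus OND 0 of the 31 genes were called by edgeR, against 3.5% and 3.01% of all tested genes. At an unadjusted p under 0.05 there were 7 and 4, against 21.2% and 22% of all genes, while DESeq2, run on all 34 genes without the count minimum, called 3 (Btg2, Trp53i11 and Pmaip1, the last not among the 31) and 1 (Dcxr) higher. Apaf1 was called in YHFD minus YND without the 4 libraries (1.18, adjusted p = 0.0496), 1 of 31 against 1074 of all 13593 genes.

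Of 14 senescence regulators 12 were tested. In OND minus YND 2 rose, the survival gene Bcl2 (2.54, adjusted p = 0.0204) and the transcription factor Ets1 (1.40, adjusted p = 0.0478), 2 of 12 against 8.5% of all tested genes. Without the 4 libraries 0 were called, against 94 of all 13593 genes. In OHFD minus YND 4 rose (Bcl2, Ets1, Glb1 and Hmgb1) and 1 fell (Cdkn2c, -1.14), 5 of 12 against 30.2% of all tested genes. Without the 4 libraries 1 rose (Hmgb1) and 1 fell (Cdkn2c), against 2605 of all 13593 genes called. In YHFD minus YND 0 of 12 were called by edgeR, against 3.5% of all tested genes, with 2 at an unadjusted p under 0.05, against 21.2%, and Bcl2 and Ets1 were called by DESeq2 and without the 4 libraries. In that last fit 7 of 7 endothelial, 3 of 10 macrophage and 3 of 7 stellate markers were also called higher in YHFD, against 673 of all 13593 genes. The part of these cells in the Bcl2 and Ets1 values was not tested. In OHFD minus OND and OHFD minus YHFD 0 of 12 were called by edgeR, against 3.01% and 2.24% of all tested genes, with 3 each at an unadjusted p under 0.05, against 22% and 21%. DESeq2 called Hmgb1 higher in OHFD minus OND (0.46 by edgeR, adjusted p = 0.0761) and none in OHFD minus YHFD. Cdkn2a, the p16 and p19Arf locus and a standard senescence marker, was below the count minimum, with 0 to 2 counts in YND mice, 0 to 4 in YHFD, 0 to 20 in OND and 0 to 13 in OHFD. DESeq2, run without that minimum, called it higher in OND and in OHFD than in YND. Its highest OND and OHFD values came from replicate 4 of each group, among the mice with the highest macrophage marker sums, and the part of those cells in it was not tested.

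Of 22 secretory (SASP) genes 14 were tested, and in OND minus YND 11 rose and 0 fell, with a median of 2.33, against 7.26% of all tested genes called higher and 8.5% called. They included the chemokines Cxcl1 (2.71, adjusted p = 0.000412) and Ccl5 (4.70, adjusted p = 0.00471) and the growth factor carrier Igfbp3 (2.67, adjusted p = 0.00467). In the same comparison all 10 macrophage and Kupffer markers rose, with a median of 3.44. Without the 4 libraries 2 of 13 secretory genes (Cxcl1 and Igfbp3) and 0 of 10 macrophage markers were called, against 94 of all 13593 genes. The list medians were still above 0 on the log2 scale, 1.31 for the secretory genes and 1.89 for the macrophage markers (Adgre1 2.21, C1qa 2.13). In OHFD minus YND 10 secretory genes rose (median 1.99), against 17.3% of all tested genes called higher and 30.2% called. In YHFD minus YND 2 rose, Cxcl10 (1.83) among them, against 3.5% of all tested genes called. Without the 4 libraries these were 6 of 13 each, where 2605 and 1074 of all 13593 genes were called. In OHFD minus OND and in OHFD minus YHFD 0 of 14 were called by edgeR, against 3.01% and 2.24% of all tested genes, with 2 and 3 at an unadjusted p under 0.05, against 22% and 21%, while DESeq2 called 1 lower (Hgf) and 2 higher (Ccl5 and Cxcl1). The part of immune and other non-hepatocyte cells in these secretory values was not tested.

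None of the 10 proliferation genes was called in any of the 6 comparisons by edgeR or DESeq2, against 0% (interaction) to 30.2% (OHFD minus YND) of all tested genes by edgeR. By edgeR 0 had an unadjusted p under 0.05, against 1247 (interaction) to 5749 (OHFD minus YND) of all 13583 genes. Of the 8 ATF4 and CHOP genes, a stress pathway that also drives Gdf15, 1 fell in YHFD minus YND (Asns, asparagine synthetase, -2.48, against 3.5% of all tested genes called) and 1 rose in OND minus YND (Atf3, 2.06, against 8.5%). In OHFD minus YND 0 of the 8 were called by edgeR, against 30.2%, and DESeq2 called Atf3 higher. There 1 had an unadjusted p under 0.05 by edgeR, against 5749 of all 13583 genes. In OHFD minus OND and OHFD minus YHFD 0 of the 8 were called by edgeR, against 3.01% and 2.24% of all tested genes. At an unadjusted p under 0.05 there were 0 and 2 of the 8, against 22% and 21% of all tested genes. In these comparisons DESeq2 called none and 1 (Asns, higher in OHFD). Leaving out the 4 libraries, 2 fell in YHFD minus YND (Asns, -2.48, and Atf4, -0.38, adjusted p = 0.0480) and 0 were called in OND minus YND (Atf3 1.64, adjusted p = 0.179) or in OHFD minus YND. Of all 13593 genes in that fit, 1074, 94 and 2605 were called in these comparisons.

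**Figure D4:**
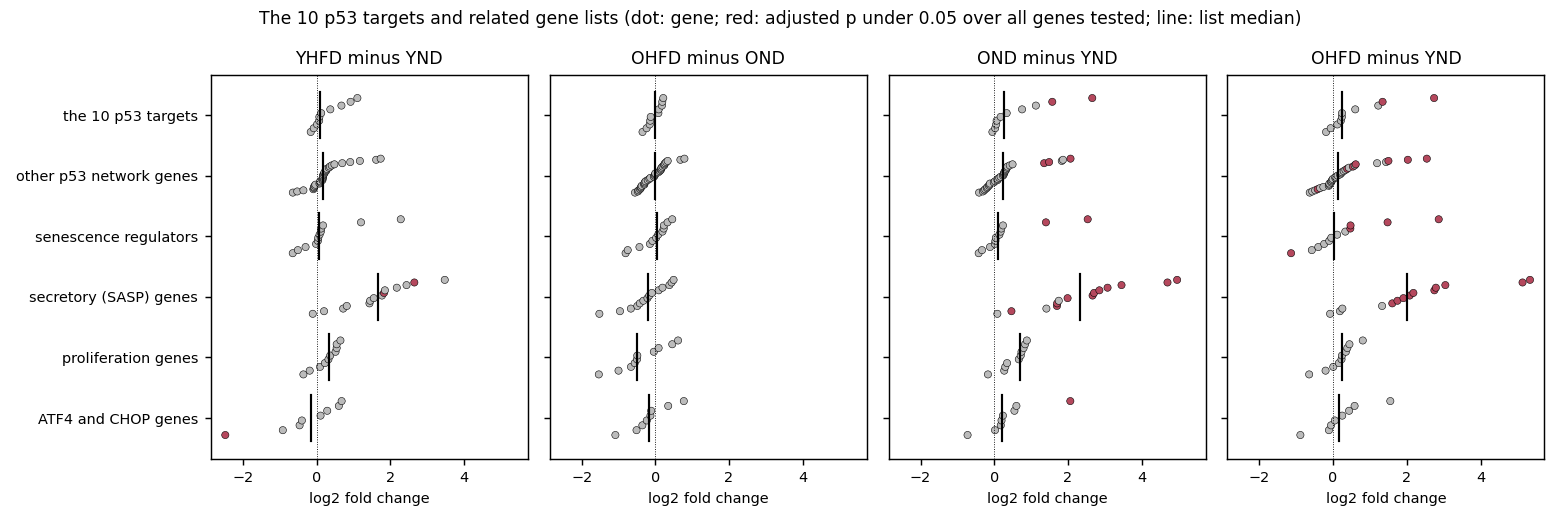
log2 fold change of each tested gene in the 10 p53 targets and 5 related lists for 4 comparisons on 1 shared axis, with red dots for adjusted p under 0.05 over all genes and a black line at the list median. In OND minus YND the secretory list had a median of 2.33 with 11 of 14 genes called, the p53 targets 0.26 with 2 of 10, and 8.5% of all tested genes were called.

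Whether the other targets varied with Cdkn1a from mouse to mouse was asked over the 24 mice, on log2 CPM with group and batch means removed. The 9 correlations were tested by permutation (100000 two-sided) and adjusted over the 9. Eda2r had the highest (Pearson r = 0.600, permutation p = 0.00721, adjusted p = 0.0649; Spearman rho = 0.561, permutation p = 0.0192, adjusted p = 0.173), and it did not pass. Without the 2 mice farthest in Cdkn1a r was 0.551, and it was 0.282 in batch 1 and 0.708 in batch 2. The other eight ran from -0.001 (Sesn1) over 0.02 (Mdm2), 0.33 (Phlda3) and 0.35 (Trp53inp1) to 0.39 (Gdf15), with adjusted p of 0.362 or more.

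**Figure D5:**
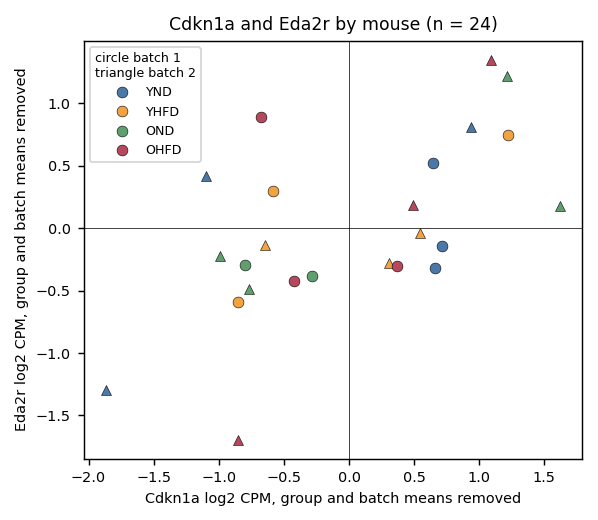
Eda2r against Cdkn1a in each of 24 mice, both as log2 CPM with group and batch means removed, coloured by group, with circles for batch 1 and triangles for batch 2. The points run from lower left to upper right with r = 0.600, and an OHFD and a YND mouse lie lowest in Eda2r.

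Across the 24 mice, which share batch, depth and other cells' RNA, the genes with the most similar log2 CPM were listed for each target as a description. Gdf15 was most like Btg2 (r = 0.845) and Depp1 (r = 0.841). Mdm2 was most like Rhbdf1 (r = 0.935) and Med15 (r = 0.917), and Phlda3 most like Snx5 (r = 0.805) and Myl12b (r = 0.792). Cdkn1a was most like Cdc42se2 (r = 0.730) and Zfp839 (r = 0.706), and Eda2r most like Adamtsl1 (r = 0.766) and Trim21 (r = 0.752).

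In the GENCODE annotation (GRCm38) all 10 are protein-coding genes. Phlda3 lies on chromosome 1 from 135766119 to 135769136 (plus strand), Eda2r on chromosome X from 97333840 to 97377216 (minus strand), Gdf15 on chromosome 8 from 70629393 to 70632456 (minus strand) and Cdkn1a on chromosome 17 from 29090976 to 29100727 (plus strand). Bax and Sesn1 overlap another annotated gene on the same strand and Cdkn1a one on the other strand, so their counts could include or lose shared reads, since strand handling in counting is not stated.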

How the data were processed

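PolyA RNA-seq of isolated hepatocytes from 24 male mice was analysed. Groups, replicate numbers and batches were taken from the sample titles. Gene-level counts were deposited by the authors as whole numbers, not normalized, from STAR 2.7.3a alignment to mm10 and HTSeq 0.11.2 counting after FastQC 0.11.8 (submitters' processing notes; Gencode annotation per the published methods). Handling of strand and duplicates is not given in the sources used here. The authors also deposited FPKM values from CuffLinks, adjusted between batches with ComBat. In 97.1% of 13183 genes CPM divided by FPKM was within 1.5-fold of the genomic span of the gene in kb, and in 11.1% within 1.5-fold of its exon length, so FPKM was not used to compare levels between genes. The 10 genes and the other lists were chosen with earlier results of these data known.

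Counts were tested with edgeR 4.0.16 (R 4.3.3), TMM normalization, filterByExpr with a minimum count of 10 by group, and terms for group and batch in a single fit to the 24 mice. Quasi-likelihood F tests were Benjamini-Hochberg adjusted over 13583 genes within each comparison, with a threshold of 0.05. The script was tested on simulated data with known fold changes. Fold changes are log2 with SE, and correlations used log2 CPM with a prior count of 2. Total counts of 9200332 to 22185069 per mouse set the precision of low genes. Reads carry no molecular identifiers. No 2 mice of a group had counts that agreed within sampling noise. The labels number replicates without naming animals, so p-values measure the spread between these samples, which may be partly technical.

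The text names all 10 genes, Trp53, the 3 tested genes of each other list with the smallest p in a comparison where space allowed, and the 2 most similar genes of each target. Members of lists named for small counts outside that rule, such as Fdxr, Glb1 and Cdkn2a, were chosen after their values were seen. The values of 1 list gene are not reported here. Alternatives were DESeq2 1.42.0, edgeR without batch, with a replicate block, with RLE, without the count filter or on the groups compared alone, limma 3.58.1 on log2(FPKM + 1) or + 0.1 (genes with FPKM of at least 0.5 in 6 mice, or no filter), each batch alone and each mouse left out. Leaving out the 4 libraries highest in macrophage markers was added after seeing the data. Exon lengths and positions are from GENCODE for GRCm38 and promoter windows from RefSeq. Figures were drawn with matplotlib 3.10.9 and correlations permuted with scipy 1.17.1, under Python 3.11.15.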

Additional observations from a re-analysis of the deposited data

Results flagged for a closer look

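Of 60 groups of 6 mice checked for a single distant value (the 10 p53 targets and 5 further genes in 4 groups), 4 held one. The check used log2(CPM + 0.1) and a critical Dixon ratio of 0.625, and chance alone flags about 1 in 20. Mdm2 was 12.4 CPM in OHFD replicate 2, against 25.5 to 33.8 CPM in the other five mice. Eda2r was 0.172 CPM in YND replicate 5, against 0.756 to 1.46 CPM. Zmat3 was 6.87 CPM in YND replicate 4, against 4.35 to 5.13 CPM. Cdkn2a was 0.107 CPM in YND replicate 6 and 0 in the other five.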

How the results depend on the processing

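In OND minus YND, where 2 of the 10 targets were called, 1 was called without the batch term, 4 without a count filter (Cdkn1a and Gdf15 added), 0 with limma on log2(FPKM + 1) with or without its filter, 1 on log2(FPKM + 0.1) (Eda2r, Zmat3 and Sesn1 were below the FPKM filter and not tested in the filtered fits), 0 in either batch alone and 0 without the 4 libraries highest in macrophage markers, and 1 to 3 when a mouse was left out. By construction fewer mice enter in a single batch or without the 4 libraries, and a pseudocount of 1 shrinks low FPKM values. For the other changes the cause was not tested. In OHFD minus YND, with 2 called, 3 were called with DESeq2 (Eda2r added), 1 was called with only the groups compared, 1 with limma on log2(FPKM + 1) without a filter, 0 in batch 1 and 1 in batch 2, and 2 to 4 when a mouse was left out, the 4 arising without OHFD replicate 4 (Ccng1 and Eda2r added). In YHFD minus YND 1 was called without a count filter (Gdf15) and 1 with only the groups compared (Ccng1), and in OHFD minus YHFD 1 without a count filter (Gdf15). Phlda3 fell below the filter when only the groups compared were used, except in OHFD minus OND. Cdkn1a with Sesn1 gave r = 0.000705 on log2(FPKM + 1) and 0.0149 without removing batch means, and -0.0834 to 0.0686 with a mouse left out. Cdkn1a with Mdm2 gave -0.0081 and, with a mouse left out, -0.0392 to 0.212. Cdkn1a with Eda2r gave 0.585 (adjusted p = 0.0452) without removing batch means and 0.500 to 0.689 with a mouse left out, passing without OHFD replicate 2 or 3. With the replicate number as a block, 2 targets were called in OND minus YND (Phlda3 and Gdf15, with Eda2r at 1.46, adjusted p = 0.0533) and 2 in OHFD minus YND (Phlda3 and Gdf15). Whether the numbers pair mice could not be settled. Same-numbered mice correlated from -0.320 to 0.551, over 0.1 in 21 of 36 pairs, with group means but not batch means removed, so batch enters these values. Without the 4 libraries 1074, 401, 94, 94 and 2605 genes were called in the 5 group comparisons, against 475, 409, 1155, 304 and 4101. Few counts limit Phlda3, Eda2r and Cdkn2a.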
